A study of Mus musculus with 8 samples.

Results

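The BTG/TOB genes encode a small family of antiproliferative proteins, and its 6 mouse members, Btg1, Btg2, Btg3, Btg4, Tob1 and Tob2, were followed here through meiotic maturation of the oocyte. They were chosen by symbol. All 6 were listed in both sets of expression tables and passed the filter on low values, so they make up 6 of the 13952 genes tested. The question was which members the oocyte held besides Btg4, and how their RNAs differed between stages and between oocytes given wild-type or mutant BTG4.

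Proteins of this family share an N-terminal domain that binds the CNOT7 and CNOT8 deadenylases of the CCR4-NOT complex, the main enzyme that shortens poly(A) tails in the cytoplasm. By bringing that enzyme to mRNA they promote deadenylation and decay. BTG4 is the member known for the clearance of maternal mRNA in oocytes, whereas BTG1 and BTG2 are best known as growth arrest genes of somatic cells and TOB1 and TOB2 carry a C-terminal extension that binds the cytoplasmic poly(A)-binding protein.

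Polyadenylated RNA was measured with Smart-seq2 in 8 libraries of 15 oocytes, 2 in each of 4 groups. Reverse transcription was primed with oligo(dT), so the signal of an RNA may depend on its tail as well as its amount. These cannot be told apart here, and rises and falls below are those of the signal. GV and MII libraries held uninjected oocytes, with the treatment label WT, at the germinal vesicle stage, that is, still in meiotic prophase, or at metaphase II. Btg4wt and Btg4tm libraries held MII oocytes whose injected cRNA encoded BTG4 without a mutation or BTG4 with 3 alanines in place of T145, S146 and S147. Per the methods of the study, GV and MII oocytes were from in vitro culture, females were 6-week-old ICR mice, and the cRNA was made from a Myc-pCS2+ vector and injected into fully grown oocytes, which keep their own Btg4 gene and RNA. Nothing in the labels says that the 2 libraries of a group came from separate animals or days, so p-values measure the spread between libraries, which may be technical.

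The changed bases of the construct lie in the coding sequence of Btg4. The gene (ENSMUSG00000032056) spans chr9:51060901-51119875 on the plus strand of GRCm38, and in transcript ENSMUST00000114431 of the GENCODE annotation the 3 codons fall in exon 4 of 5, from position 51117949 to 51117957. The reference coding sequence and the study's mutagenic primer, the latter written as its reverse complement so that both read in the sense direction, are shown because they define what separates the injected groups. Capitals mark the bases that differ.
Btg4 reference: gggagactgctcctctggcAcaTctTctga
Btg4tm primer: gggagactgctcctctggcGcaGctGctga
These 3 bases give T145A, S146A and S147A, counted from the first methionine. Gene-level values cannot separate injected from endogenous Btg4 RNA, because both carry this coding sequence.

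The other members lie on 5 further chromosomes. Btg1 (ENSMUSG00000036478) is at chr10:96617006-96622809 on the plus strand, Btg2 (ENSMUSG00000020423) at chr1:134075170-134079120 on the minus strand and Btg3 (ENSMUSG00000022863) at chr16:78332637-78377192 on the minus strand. Tob1 (ENSMUSG00000037573) is at chr11:94211454-94215495 on the plus strand and Tob2 (ENSMUSG00000048546) at chr15:81848272-81858796 on the minus strand. Over the first 120 residues, which span the family domain, Tob1 and Tob2 were 78.3% identical, Btg1 and Btg2 68.6% and Btg3 and Btg4 56.7%. Each of the other 12 pairs was between 35.3% and 45.4% identical, so the family falls into 3 pairs by sequence. The proteins translated from the annotated coding sequences have 171 residues for BTG1, 158 for BTG2, 252 for BTG3, 250 for BTG4, 362 for TOB1 and 345 for TOB2.

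The 3′ untranslated regions differ more than the proteins. The annotated region was 439 bases long in Btg3, 521 in Btg4, 767 in Tob1, 2199 in Btg2, 2457 in Tob2 and 4166 in Btg1. Matches to the cytoplasmic polyadenylation element (TTTTAT or TTTTAAT, on the transcribed strand), the motif at which CPEB1 controls tail length in oocytes, numbered 5 in Btg4, against a median of 1 in the last 521 bases of 7079 coding genes tested with a region at least that long, of which 50.7% held a match. Tob1 had 1 match in its 767 bases, where the median over 5907 genes was also 1 and 61.7% held one. Btg3 had 3 in its 439 bases, against a median of 0 over 7530 genes, of which 46.6% held a match. Btg1 had 7 against a median of 5, and Btg2 and Tob2 had 2 each against a median of 3. In the last 100 bases only Btg4 and Btg3 among the members had a match, as did 19.9% of 10228 genes. A second Btg4 transcript with the same protein, ENSMUST00000213680, ends after 229 bases of this region and holds 2 matches, 1 of them in its last 100 bases.

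The match nearest to the end in Btg4, the only match in Tob1 and the distal one of Tob2 are printed with their flanks, since these members had the highest level or moved apart in maturation. Capitals mark the motif.
Btg4, chr9:51119797-51119826, plus strand: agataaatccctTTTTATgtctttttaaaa
Tob1, chr11:94214995-94215024, plus strand: gctgaattttttTTTTATaaaaaattggca
Tob2, chr15:81848832-81848861, minus strand: agaagaacttttTTTTATtttttacatttt
The Btg4 motif starts 67 bases before the annotated end, the Tob1 motif 489 bases and the Tob2 motif 578 bases.

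The Pumilio element TGTANATA, searched on the same strand, matched in Btg1 alone among the members. Btg1 held 2 matches, and 55.6% of 588 genes with a region as long held at least 1. The one nearer to the end is printed with the motif in capitals.
Btg1, chr10:96622021-96622050, plus strand: agtaattttgcTGTAAATAttaacggggtt
The AU-rich pentamer ATTTA occurred 11 times in Btg1, 5 times in Btg2, 4 times each in Btg4, Tob2 and Btg3, and 3 times in Tob1. The medians over genes with regions as long were 7, 4, 1, 4, 1 and 1. A match describes letters in the annotated region and says nothing of binding.

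Most family RNA in the oocyte was Btg4. Values are TPM, shares of a library with gene length taken into account, scaled between libraries. Btg4 was at 2650 and 2794 scaled TPM in the GV libraries, at 5792 and 6002 in MII, at 5178 and 5510 in Btg4wt and at 3725 and 4068 in Btg4tm. Its percentile among all genes was 99.8 or 99.9 in each of the 8 libraries, and it made up between 96.7% and 98.3% of the summed TPM of the family. Its GV, MII, Btg4wt and Btg4tm ranges did not overlap.

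**Figure D1:**
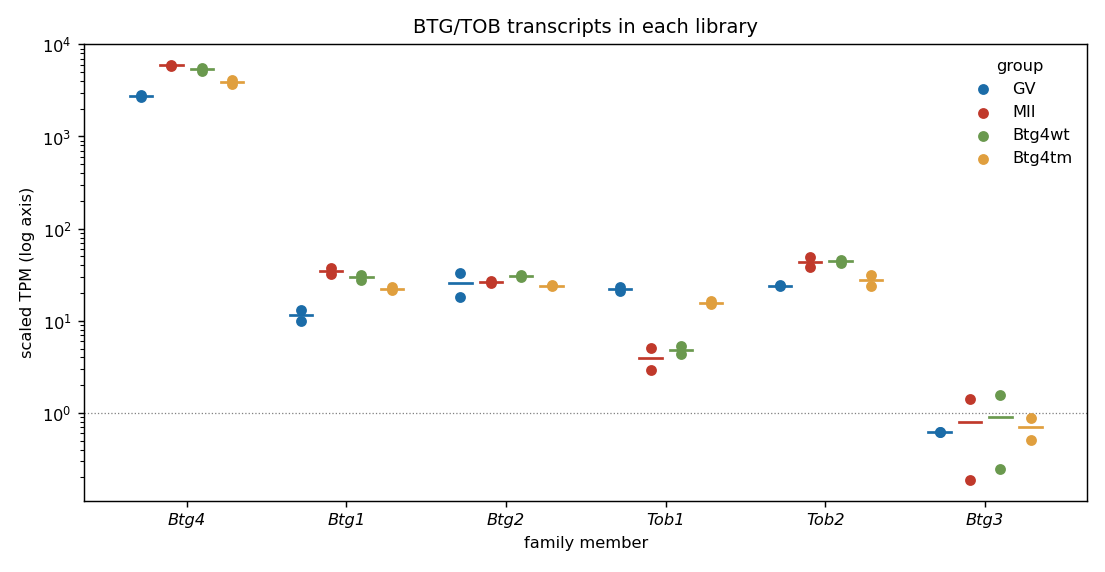
Scaled TPM (log axis) of the 6 members in each library, with points for libraries, horizontal bars for group means (n = 2) and a dotted line at 1 TPM. Btg4 sat between 2650 and 6002, 4 members between 2.89 and 49.0, and Btg3 at or under 1.55.

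Besides Btg4, the GV libraries held Btg2, Tob2 and Tob1 RNA at similar levels and Btg1 RNA at a lower one, all far below Btg4. Whether any of this RNA came from cumulus or granulosa cells was not tested. In GV the means were 25.5 ± 10.5 scaled TPM (SD, n = 2) for Btg2, 24.2 ± 0.135 for Tob2, 22.0 ± 1.75 for Tob1 and 11.6 ± 2.25 for Btg1. Btg4 exceeded Btg2, the next in order, by 107-fold. The range of Btg2 enclosed those of Tob2 and Tob1, so its place was within the spread, and the ranges of Tob2, Tob1 and Btg1 did not overlap. In MII the order was Btg4, Tob2, Btg1, Btg2 and Tob1, with 135-fold between the first and second, and no ranges of neighbours overlapped. By group means Tob1 stood 4th of 6 in GV and 5th in MII. In Btg4wt Tob2 at 44.2 ± 1.90 followed Btg4, Btg2 at 30.7 ± 1.24 and Btg1 at 29.8 ± 2.52 overlapped, and Tob1 was at 4.82 ± 0.634. In Btg4tm Tob2 at 27.7 ± 5.76 and Btg2 at 24.0 ± 0.504 overlapped, and Btg1 at 22.3 ± 1.29 and Tob1 at 15.7 ± 0.920 did not.

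Btg3 stayed near the lower limit of the tables. It was at 0.62 scaled TPM in both GV libraries, 0.187 and 1.41 in MII, 0.246 and 1.55 in Btg4wt and 0.512 and 0.890 in Btg4tm. All groups overlapped. Only 2 libraries were above 1 TPM, and 51.8% of the 50-base stretches of its coding transcript ENSMUST00000023570 also occurred in transcripts of other genes, so reads could be lost or shared. Btg3 is not described further than its tests. For Btg1 and Tob2 that share was 2.63% and 3.90%, and for Btg2, Btg4 and Tob1 it was 0.

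The comparison of MII with GV asked how the members differed across maturation. In the fit, on scaled TPM + 1, Tob1 RNA fell to 0.211 of its GV value. Btg1 rose 2.84-fold and Btg4 rose 2.17-fold, so the 3 called members did not share a direction. A call needed an adjusted p-value under 0.05 and a fold change over 1 on the log2 scale. Of the 6 members, 2 were called higher and 1 lower, where 12.6% of all genes tested were called higher and 24% lower. The median log2 fold change was 0.46 over the members and 0.00 over all genes.

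Tob1 was at 20.8 and 23.3 scaled TPM in GV and at 2.89 and 5.08 in MII. Both MII libraries were below both GV libraries. The log2 fold change was −2.24 (SE 0.23), with an adjusted p of 6.3e-05 by limma. It lay between −2.55 and −1.91 when any 1 library was left out.

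Its close relative Tob2 was at 24.2 and 24.1 scaled TPM in GV and at 49.0 and 38.7 in MII. The groups did not overlap and the difference lay in the other direction. The log2 fold change was 0.82 (SE 0.17, adjusted p = 0.0032 by limma), past the p threshold and under the fold threshold, and it passed both thresholds without MII replicate 2, at 1.01, and with quantile normalization, at 1.07 (adjusted p = 0.00078). In the fit as described Tob2 is not counted as changed.

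Because both genes were measured in the same libraries, their ratio does not depend on scaling between libraries. Tob1 over Tob2 was 0.858 and 0.968 in GV and 0.0590 and 0.131 in MII. It was 0.123 and 0.0960 in Btg4wt and 0.516 and 0.639 in Btg4tm. The pair was near parity in GV, Tob2 dominated in MII and Btg4wt, and the Btg4tm libraries lay between. With 2 against 2 an exact permutation test cannot give a p under 0.333, so none is given for the ratios.

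**Figure D2:**
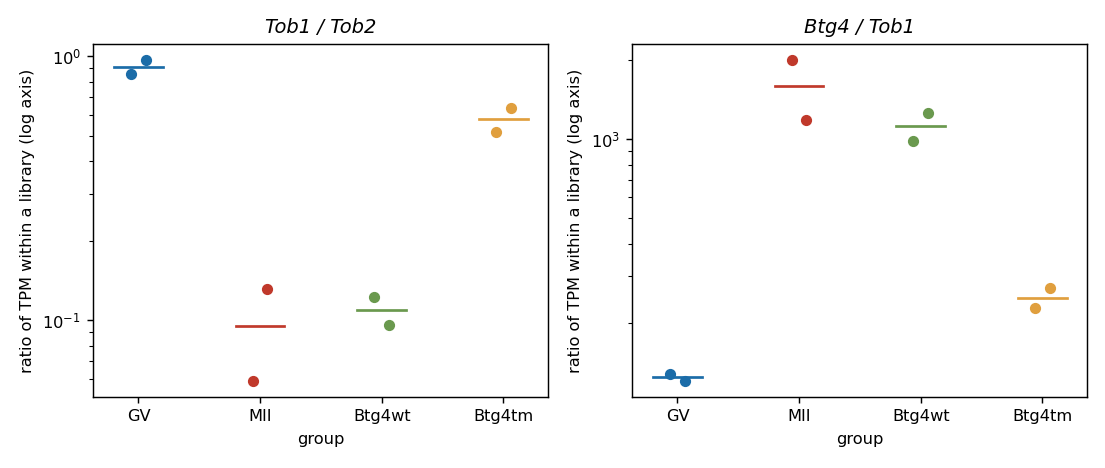
Ratios of TPM within each library (log axes), Tob1 over Tob2 on the left and Btg4 over Tob1 on the right, with points for libraries and bars for group means (n = 2). Tob1 over Tob2 ran from 0.0590 to 0.968 and Btg4 over Tob1 from 120 to 2003, and in both panels the Btg4tm points lay between those of GV and those of MII and Btg4wt.

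Btg1 was at 13.2 and 10.01 scaled TPM in GV and at 37.3 and 31.9 in MII. Both MII libraries were above both GV libraries. The log2 fold change was 1.51 (SE 0.17, adjusted p = 9.4e-05 by limma), and leaving out any library kept it between 1.33 and 1.69.

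For Btg4, whose levels are given above, the log2 fold change was 1.12 (SE 0.10, adjusted p = 3.2e-05 by limma). It fell under the fold threshold with TPM as deposited, at 0.96, and with quantile normalization, at 0.33. In the latter the median of all genes was 0.27, so that Btg4 stood 0.06 above it. Quantile normalization sets values by rank within a library. Btg4 was at percentile 99.8 or 99.9 in every library, so that setting can hardly show a rise of this gene.

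Btg2, a target of p53 and an early response gene in somatic cells, was at 32.9 and 18.1 scaled TPM in GV and at 25.5 and 26.8 in MII. The GV libraries enclosed those of MII. Its log2 fold change was 0.10, with a 95% confidence interval from −0.45 to 0.64 (adjusted p = 0.74 by limma). The interval holds no change of the call size, but it rests on 2 unlike GV libraries, and without GV replicate 1 or 2 the value ran as low as −0.32 or as high as 0.51. Btg3 gave 0.06, with an interval from −0.90 to 1.02.

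Mitochondrially encoded genes moved with the groups, and so the choice of scale mattered. Their share of listed TPM was 0.623% to 0.648% in GV, 2.60% to 2.70% in MII, 1.75% to 2.05% in Btg4wt and 0.762% to 1.02% in Btg4tm. When libraries were scaled to these genes, the median log2 fold change of all genes from GV to MII was −1.69, and Btg1 (−0.60), Btg2 (−2.03), Btg4 (−1.10) and Tob2 (−1.33) turned lower in MII, while Tob1 (−4.12) stayed lower. Relative to that median, Btg1 stood at 1.09, Btg4 at 0.59, Tob2 at 0.37, Btg2 at −0.34 and Tob1 at −2.43. The rise of Btg1 is thus one relative to the median of all genes, from which it stood 1.09 to 1.54 higher under the 4 scalings run. That of Btg4 varied with the scaling, from 0.59 to 1.11 above the median without quantile normalization. With quantile normalization it was 0.06, a setting that can hardly show a rise of a gene ranked this high. The fall of Tob1 held on each scale. Per-oocyte RNA amounts were not measured.

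**Figure D3:**
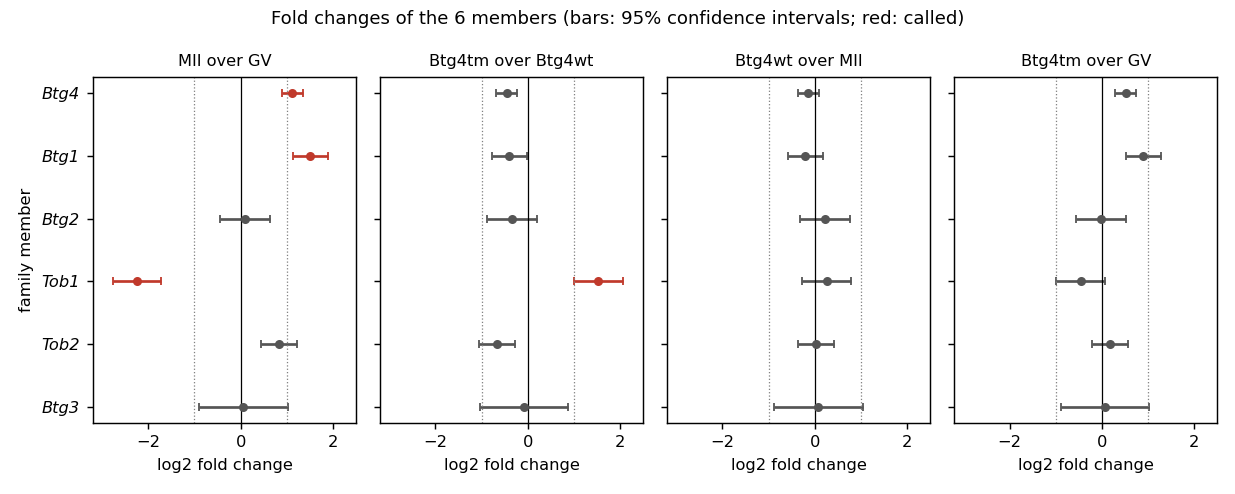
Log2 fold changes of the 6 members in 4 comparisons, with 95% confidence intervals from limma, dotted lines at the fold threshold and called members in red. Tob1 was called at −2.24 in MII over GV and at 1.53 in Btg4tm over Btg4wt, Btg1 at 1.51 and Btg4 at 1.12 in MII over GV, where the last pair turned lower (−0.60 and −1.10) with scaling to mitochondrially encoded genes.

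The comparison of Btg4tm with Btg4wt asked how the members differed between MII oocytes given mutant and wild-type BTG4. On scaled TPM + 1 Tob1 rose 2.88-fold and was the 1 member called. Of all genes tested 18.2% were called higher and 7.95% lower. No member was called lower. Of the 6 members 4 had an unadjusted p under 0.05, Tob1 among them, as did 55.6% of all genes, and the median log2 fold change was −0.37 over the members and 0.01 over all genes. Scaled to mitochondrially encoded genes, all 6 members had log2 fold changes above 0, on a median of all genes of 0.84, and Tob1 was again the 1 called.

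Tob1 was at 5.27 and 4.37 scaled TPM in Btg4wt and at 16.4 and 15.1 in Btg4tm. The groups did not overlap, and both Btg4tm libraries stayed below both GV libraries. The log2 fold change was 1.53 (SE 0.23, adjusted p = 0.00081 by limma). It kept its call in every alternative tried.

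Tob2 was at 42.9 and 45.5 scaled TPM in Btg4wt and at 31.7 and 23.6 in Btg4tm, so the groups did not overlap. The log2 fold change was −0.67 (SE 0.17, adjusted p = 0.012 by limma), under the fold threshold. Scaled to mitochondrially encoded genes it was 0.39, or −0.46 relative to the median of all genes.

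Btg4 itself stood lower in Btg4tm than in Btg4wt, with no overlap, at a log2 fold change of −0.46 (SE 0.10, adjusted p = 0.0057 by limma), also under the fold threshold and above 0 (0.63) with the mitochondrial scaling. Btg1 was at 28.0 and 31.5 scaled TPM in Btg4wt and at 23.2 and 21.4 in Btg4tm, and its log2 fold change of −0.40 had an adjusted p of 0.076 by limma. Btg2 was at 29.9 and 31.6 in Btg4wt and at 24.3 and 23.6 in Btg4tm, and its −0.35 had an adjusted p of 0.26. Btg3 gave −0.08, with an interval from −1.04 to 0.88.

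The comparison of Btg4wt with MII asked how MII oocytes given wild-type BTG4 differed from uninjected ones. No group was mock-injected, and control and injection libraries were in separate sets of tables. Injection itself, the BTG4 it encoded and the set of tables therefore cannot be told apart. The same holds for Btg4tm against GV, which also differed in stage. No member was called, and the calls over all genes were 0% higher and 0% lower by limma, with 1657 genes and 0 members at an unadjusted p under 0.05. Btg4 was at a log2 fold change of −0.14, with a 95% confidence interval from −0.37 to 0.09, and at 0.35 with the mitochondrial scaling, where the median of all genes was 0.38. A rise of the call size lay outside the interval. Intervals of Btg1, Btg2, Tob1 and Tob2 also lay within 1 of 0 on the log2 scale, while that of Btg3 ran from −0.88 to 1.03. An injected cRNA is seen by the oligo(dT) primer only as far as it carries a tail. Whether it carried one is not stated, and its part in the Btg4 signal was not tested. By immunoblot the paper reported overexpressed BTG4 protein and an apparent reduction of endogenous BTG4.

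In Btg4tm compared with GV no member was called, where 1.02% of all genes were called higher and 1.02% lower, and 2 members had an unadjusted p under 0.05, as did 29.7% of all genes. These were Btg1, at a log2 fold change of 0.90 (adjusted p = 0.015 by limma), and Btg4, at 0.52 (adjusted p = 0.017). Tob1 was at −0.46, with a 95% confidence interval from −0.99 to 0.07, so a remaining deficit of up to that size was not excluded. Without GV replicate 1, Btg1 passed the fold threshold at 1.09.

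Whether the difference between the injected groups matched the reverse of the maturation difference was tested as one contrast in the same fit, in which 3.69% of all genes were called. The contrast of Tob1 was −0.72 (adjusted p = 0.21 by limma), with a 95% confidence interval from −1.46 to 0.03, and the difference between Btg4tm and Btg4wt was 68.1% of its maturation difference on the log2 scale. The same share was 81.4% for Tob2, 40.9% for Btg4 and 26.7% for Btg1. Over the 3351 genes called lower in MII the median share was 76.5%, and over the 1752 called higher it was 52.1%. The order of the members by this share depended on the scaling. With the mitochondrial scaling the maturation and injected-group differences were −0.60 and 0.64 for Btg1 and −1.10 and 0.63 for Btg4. They were −1.33 and 0.39 for Tob2 and −4.12 and 2.47 for Tob1. Btg1 was the 1 member called in the contrast (1.10, adjusted p = 0.033), but the call was lost when any library other than GV replicate 1 was left out, with adjusted p between 0.051 and 0.11 by limma, and with TPM as deposited or the mitochondrial scaling. For Btg2 and Btg3 the maturation difference was near 0 and the share has no meaning.

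RNAs for subunits of the deadenylase complex that these adaptors recruit were also measured, but not its proteins or activity. The calls for this and the next lists rest on the scaling of the main fit. With the mitochondrial scaling 7 genes in all were called higher in MII and 11756 lower. Of 12 CCR4-NOT subunits, 5 rose and 2 fell in MII compared with GV, where 12.6% of all genes were called higher and 24% lower. Cnot7, a catalytic subunit that BTG/TOB proteins bind, was at 230 scaled TPM in GV and 578 in MII (log2 fold change 1.33), and Cnot6l, the catalytic subunit known for maternal mRNA decay, at 30.5 and 90.2 (1.53). Cnot4, an E3 ubiquitin ligase, gave 1.30 and Cnot3 gave 1.06. Cnot9 fell by 1.03 on the log2 scale. Cnot6 (1.04) and Cnot10 (−1.55) were also called at a mean under 10 TPM. Cnot8, the paralogue of Cnot7, was at 209 and 183 and did not pass.

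In Btg4tm compared with Btg4wt 1 subunit rose and 3 fell, where 18.2% of all genes were called higher and 7.95% lower. Cnot11 rose by 1.03 on the log2 scale. Cnot3 was at 183 scaled TPM in Btg4wt and 46.8 in Btg4tm (−1.95), and Cnot1 (−1.25) and Cnot6l (−1.08) fell as well. The median log2 fold change of the subunits was 0.58 in MII over GV and −0.30 in Btg4tm over Btg4wt, against 0.00 and 0.01 over all genes.

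Other proteins also bring CCR4-NOT to mRNA. Of 20 such genes 14 were tested, and in MII 4 rose and 0 fell (12.6% and 24% of all genes). These were Tnrc6c (1.57 on the log2 scale) and Tnrc6b (1.20), which act with microRNAs, Bicc1 (1.22), an RNA-binding protein, and Rc3h1 (1.21), known as Roquin. In Btg4tm compared with Btg4wt 0 rose and 3 fell (18.2% and 7.95% of all genes), namely Tnrc6b (−1.22), Rc3h1 (−1.17) and Cpeb3 (−1.07), the last at a mean under 10 TPM. The list's medians were 0.82 and −0.75.

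A list of protein partners of the family held 11 genes, with oocyte forms such as Pabpc1l and Eif4e1b, and binding was not tested. Smad1, a BMP signal transducer, rose in MII by 1.23 on the log2 scale. Pabpc1l, the poly(A)-binding protein of oocytes, fell by 1.65. Pabpc1l was at 123 scaled TPM in GV, 38.6 in MII, 53.3 in Btg4wt and 111 in Btg4tm, where it rose by 1.06 over Btg4wt. Eif4e1b, an oocyte form of the cap-binding protein, fell by 2.39 in Btg4tm, and Prmt1, the methyltransferase that BTG1 and BTG2 bind, by 1.11 at a mean under 10 TPM. Pabpn1l, the partner of BTG4 in oocytes, was at 2660 scaled TPM in GV and 2183 in MII and was not called in either comparison. In all, 1 listed gene rose and 1 fell in MII, and 1 rose and 2 fell in Btg4tm, against the same shares of all genes. Medians of the list were 0.03 and −0.11.

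**Figure D4:**
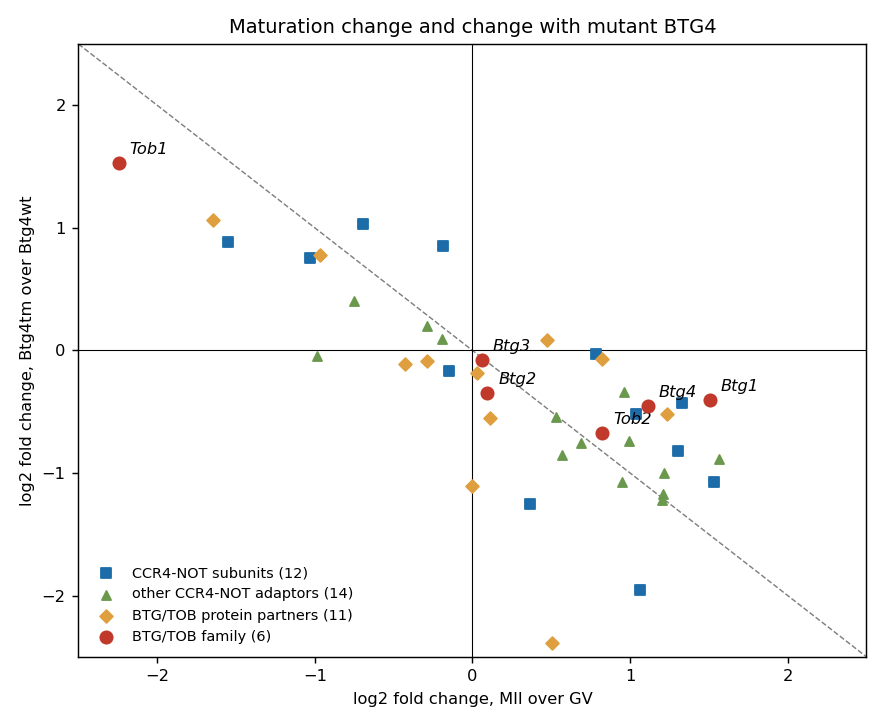
Log2 fold change in Btg4tm over Btg4wt against that in MII over GV for the members and the 3 related lists, each point a gene, with a dashed line where both changes would cancel. Tob1 lay at −2.24 and 1.53, and Btg1 (1.51 and −0.40) and Btg4 (1.12 and −0.46) lay on the other side. With scaling to mitochondrially encoded genes the median of all genes moved to −1.69 on the x axis and 0.84 on the y axis.

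Genes known to share inputs with Btg2 in somatic cells were counted against the same background of 12.6% higher and 24% lower in MII, and 18.2% higher and 7.95% lower in Btg4tm. Of 15 p53 targets 10 were tested, with 1 higher and 1 lower in MII and 1 higher in Btg4tm over Btg4wt (medians −0.02 and −0.14). Of 21 immediate early genes 10 were tested, with 1 lower in MII, and 1 higher and 1 lower in Btg4tm over Btg4wt (medians 0.64 and −0.09). No gene of any list named here was called between Btg4wt and MII or between Btg4tm and GV.

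The genes whose 4 group means came closest to each member were sought among genes with a mean of at least 10 TPM, by the root mean square difference of centred log2 profiles. For Tob1 these were Acot8, Eif3d and Qars, with differences from 0.023 to 0.036 over 6881 genes. For Btg1 they were Uvssa, Rab14 and Dpy30, and for Btg4 Pnp, Pthlh and Phf14. Tob2 was closest to Spag5, Arhgap19 and Ipp, and Btg2 to Scg3, Dgkk and Cyb5r3. Btg3, at its low level, was closest to Adh5, Dmrtb1 and Crlf3, whose profiles were flat. Likeness over 4 points is a description and many genes come close.

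The libraries carried the markers of the labelled cell type. All 13 oocyte markers were tested, summing to between 23784 and 30516 scaled TPM, led by Zp3 and Gdf9. Of these, 2 were higher and 4 lower in MII, and 4 higher and 2 lower in Btg4tm over Btg4wt. Of 20 cumulus and granulosa markers 7 were listed in both sets of tables, without Amh or Foxl2, and 5 were tested, with 1 lower in MII and 1 higher in Btg4tm. The listed ones, led by Cyp19a1 and Nr5a2, summed to 36.6 to 36.7 TPM in GV, 47.0 to 50.9 in MII, 47.4 to 48.2 in Btg4wt and 37.3 to 42.0 in Btg4tm. Fshr and Cyp11a1 were listed in the injection tables alone, at 0.0582 and 0.152 TPM as deposited in Btg4wt and 0.468 and 1.42 in Btg4tm for Fshr, and at 0.114 to 0.276 for Cyp11a1. The sums moved with the groups as Btg1 and Tob2 did. The marker called in both comparisons was Inha, which went the other way, in the direction of Tob1 (log2 fold changes −1.72 and 1.74). Its means were 3.24 scaled TPM in GV, 0.266 in MII, 1.48 in Btg4wt and 7.51 in Btg4tm. The part of these markers in the results was not tested. Replicates correlated at a Pearson r of 0.982 to 0.987 across genes, which are not independent, and no library stood apart.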

How the data were processed

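The authors trimmed reads with Trim Galore 0.6.10, aligned them to GRCm38 with HISAT2 2.2.0 and GENCODE vM25, counted exonic reads of mapping quality 10 or more without strand in featureCounts 2.0.6, and deposited TPM per gene symbol. They used DESeq2 on counts, which are not used here. TPM are shares of a library and keep no depth, so depth is unknown and precision rests on 2 libraries per group. The labels speak of 3 samples per group, and 2 were analysed here. The listed TPM summed to between 996199 and 998615.

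The 15962 genes in both sets of tables (17384 control, 16448 injection) were brought to a common scale with median-of-ratios factors and put on the log2(TPM + 1) scale, which understates changes of low genes. limma 3.58.1 in R 4.3.3 (eBayes with trend) was fitted to all 8 libraries over the 13952 genes with at least 1 scaled TPM in at least 2 libraries. Adjusted p-values are Benjamini-Hochberg values over all genes tested. The procedure was run on simulated data with independent noise and few changed genes, balanced in direction. Such data do not test the choice of scaling or a setting with many changed genes.

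The members and lists were chosen with earlier results of these data known. Named genes were the 6 members, the called genes of the 3 related lists averaging 10 scaled TPM or more (at most 5 per list and comparison), the 3 nearest profiles per member and the 2 most abundant markers per marker list. Genes under 10 TPM were named in addition, after their values were seen. Sequences came from GENCODE M21 on GRCm38 (the coding transcript with the longest coding sequence) and the primer from the study's primer list. Protein identity was counted over aligned residues with BLOSUM62. Alternatives covered scaling, pseudocount, filter, libraries fitted, replicate block, variance prior, thresholds and each library left out. Replicate numbers did not pair the libraries.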

Additional observations from a re-analysis of the deposited data

How the results depend on the processing

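The fall of Tob1 in MII over GV and its rise in Btg4tm over Btg4wt kept their direction and call in every alternative run. Scaling to mitochondrially encoded genes gave 4 members called lower in MII over GV and reversed Btg1 (−0.60), Btg2 (−2.03), Btg4 (−1.10) and Tob2 (−1.33). Over all genes it gave 7 higher and 11756 lower calls, against 1752 and 3351. That split was 1145 and 3699 with TPM as deposited and 3102 and 2711 with quantile normalization. For Btg4tm over Btg4wt it was 2534 and 1109, against 6106 and 68 with the mitochondrial scaling and 2081 and 1778 with quantile normalization. The mitochondrial scaling also gave 1 called member in Btg4tm over GV (Tob1, −1.08, with 39 higher and 3005 lower calls over all genes, against 143 and 142), 2 in the contrast of both changes (25 higher and 6700 lower, against 278 and 237), and 16 genes called higher in Btg4wt over MII, none a member. With TPM as deposited the splits were 80 and 287 in Btg4tm over GV and 137 and 464 in the contrast.

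Without a minimum fold change, 3 members passed in Btg4tm over Btg4wt, 2 in Btg4tm over GV and 2 in the contrast. The contrast called 0 members with TPM as deposited, with eBayes without trend or at an adjusted p under 0.01, where the last pair called 0 genes in all. In MII over GV the alternatives other than the mitochondrial scaling called 2 to 4 members. Leaving out each library in turn gave 0 to 1 members in the contrast and 0 to 1 in Btg4tm over GV. Such a fit leaves 1 library in a group, assumed to vary like the others. Same-numbered libraries did not deviate together (correlations from −0.054 to 0.056), and with the replicate block 3, 1, 0 and 0 members were called in the 4 comparisons and 1 in the contrast, as without it. The member counts did not differ with fits of only 4 libraries (not possible for the contrast), a filter at 5 TPM, no filter or a pseudocount of 0.1. The cause of these differences was not tested. TPM hold no depth, so counting error of low members such as Btg3 is unknown.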
